A study of Mus musculus with 18 samples.

Results

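The report concerns 10 genes that meningeal and other fibroblasts express, Dcn, Slc6a13, Col1a1, Col1a2, Lum, Ogn, Igf2, Igfbp2, Islr and Fmod, as measured on 18 arrays of mouse hypothalamus. Each gene was represented by its brightest probeset among those annotated to a single gene, which for all 10 was the one such probeset on the array, and the 10 were part of 19937 genes measured in this way. The study compared wild-type mice with mice mutant for Wfs1, the gene of an endoplasmic reticulum membrane protein lost in Wolfram syndrome. Hypothalami were dissected under a microscope and frozen. The genetic background was written 129SV for the samples but 129S6 for the series. No treatment, age or sex was given, nor was the nature of the mutant allele.

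Each array carried a genotype label at the end of its title and a second one in its genotype field, and these contradicted each other on 9 of the 18 arrays. The arrays are named here by both, ending first. Labelled ko/KO were 5 arrays, labelled ko/WT 5, labelled wt/KO 4 and labelled wt/WT 4. By the ending there were 10 ko and 8 wt arrays, and by the field 9 KO and 9 WT arrays. The level of Wfs1 itself followed neither label, with a range of 7.86 to 8.72 on the ko/KO arrays and of 7.89 to 8.41 on the wt/WT arrays, so every difference below is one between arrays that carry a label, not between established genotypes. The labels do not say that each array is a separate animal, and p-values therefore measure the spread between arrays, which may be partly technical.

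The meninges are the membranes around the brain, and their inner layers, the arachnoid and the pia, follow the brain surface and extend along vessels that enter it. Their fibroblasts secrete a collagen matrix, the small leucine-rich proteoglycans that bind and space collagen fibrils, and growth factors that reach the cerebrospinal fluid. The hypothalamus forms the floor of the brain and carries pia on its lower surface, so a dissected piece can hold more or less of this tissue. In RNA from whole tissue, a lower number of cells of a type and less RNA per cell cannot be told apart.

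All values are log2 expression values as deposited, with array medians of 7.10 to 7.19 and array SDs of 1.93 to 2.04. Across probesets, pairs of arrays correlated at 0.975 to 0.991. Each of the 9 measured markers of the hypothalamus (among them Avp, at 9.44 to 10.89, and Hcrt, at 9.11 to 10.06) lay above the highest array median on every array. The array wt/WT 3 stood apart in Ttr, the transthyretin gene of the choroid plexus, at 12.8 against 8.01 to 10.62 on the other arrays.

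The 10 genes differed widely in how much they varied between arrays. Ogn, Dcn, Fmod, Igf2 and Slc6a13 varied most, with SDs of 0.52, 0.40, 0.36, 0.34 and 0.29 over 18 arrays, against a median SD of 0.133 over all 19937 genes. By SD these ranked 21, 85, 141, 205 and 435 among all genes. Igfbp2 and Islr followed with SDs of 0.21 and 0.19. Both chains of type I collagen and Lum had SDs of 0.14, near the middle of all genes. Most of the spread of the first 5 came from the same arrays, which were high in all of them. The heat map of the 10 genes by array shows these arrays as a block of high values in the upper rows, and a different pattern in the lower rows.

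**Figure D1:**
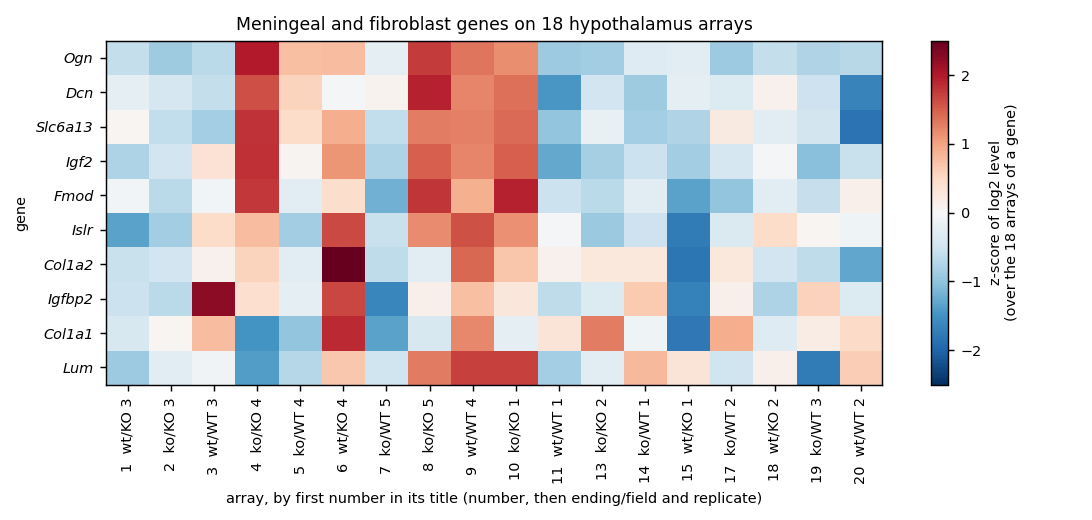
Level of the 10 genes (vertical axis) on 18 arrays (horizontal axis, ordered by the first number in the array title, followed by the labels and replicate), as z-scores of the log2 level over the 18 arrays of each gene. Ogn, Dcn, Slc6a13, Igf2 and Fmod are high on arrays numbered 4, 8, 9 and 10, and Col1a1 is low or intermediate on most of these.

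Ogn encodes osteoglycin, also called mimecan, a small leucine-rich proteoglycan. On the ko/KO arrays its level was 6.49, 5.43, 5.42, 6.92 and 6.80, and on the ko/WT arrays 5.72, 5.41, 5.49, 6.28 and 5.76. It was 5.75, 5.57, 5.57 and 6.29 on the wt/KO arrays and 5.41, 5.52, 5.53 and 6.59 on the wt/WT arrays. The levels fell in 2 clusters with no array between 5.76 and 6.28, a gap of 34.4% of the whole range. The 6 arrays above the gap came from every pair of labels, 3 from ko/KO and 1 from each of the others. From the lowest to the highest array Ogn differed 2.85-fold on the linear scale. On all 12 arrays below the gap Ogn, at 5.41 to 5.76, was under 5.81, the lowest of the lower quartiles of the arrays. Its probeset was thus among the dim ones there.

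The 6 arrays above the gap in Ogn carried the numbers 4, 5, 6, 8, 9 and 10 as the first number in their titles, out of numbers that ran from 1 to 20. The array numbered 7 lay at 5.76, the highest Ogn level of the other 12. The sources used here do not say what the number stands for, and its part in the levels was not tested. The SD of all values on these 6 arrays ran from 1.99 to 2.02, inside the range of 1.93 to 2.04 on the other 12.

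Dcn encodes decorin, the small leucine-rich proteoglycan that binds type I collagen fibrils and sequesters growth factors. Its level was 8.50, 7.76, 7.78, 8.59 and 8.72 on the ko/KO arrays and 7.59, 7.81, 7.74, 8.17 and 7.98 on the ko/WT arrays. On the wt/KO arrays it was 7.85, 7.99, 7.85 and 7.94, and on the wt/WT arrays 7.37, 7.28, 7.71 and 8.44. The 6 arrays above the gap in Ogn held 5 of the 6 highest Dcn levels. The sixth of them, wt/KO 4, lay at 7.94, and the 12 other arrays reached from 7.28 to 7.99. The lowest and the highest array differed 2.71-fold on the linear scale.

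Fmod encodes fibromodulin, a relative of decorin that regulates the assembly of collagen fibrils in tendon and cartilage. Its levels were 7.58, 6.63, 6.63, 7.52 and 7.53 on the ko/KO arrays and 6.78, 6.52, 6.67, 6.78 and 6.44 on the ko/WT arrays. They were 6.39, 6.77, 6.85 and 7.04 on the wt/KO arrays and 6.68, 6.92, 6.85 and 7.20 on the wt/WT arrays. The 3 highest arrays for Fmod, all labelled ko/KO, were also the 3 of that label pair above the gap in Ogn. Here too 5 of the 6 highest levels lay on the arrays above the gap.

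Lum, the gene of lumican, which in mouse is needed for ordered collagen in the cornea, gave a different picture. It ranged from 4.86 to 5.36 with a median of 5.085. Every one of its values was below 5.81, the lowest of the lower quartiles of the arrays, so its probeset was among the dim ones throughout. No detection calls were analysed here. Of its 6 highest levels 4 were on the arrays above the gap in Ogn, and its lowest but one level, 4.91, was on ko/KO 4, the array with the highest Ogn level.

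The bases before the start of Ogn and Fmod, which were high on the same arrays, are shown beside those of Col1a2, which followed them less closely. The sequences are those of RefSeq on GRCm38.p6, 250 bases that end at the base before the annotated transcript start, each on the + strand. RefSeq promoter windows were at hand for 7 of the 10 genes, and for 4 of them with a single start. Ogn lies at chr13:49607765-49608014, Fmod at chr1:134037004-134037253 and Col1a2 at chr6:4505368-4505617. Capitals mark matches, on either strand, to the letters TATAAA of the TATA box, CCAAT of the CCAAT box and GGGCGG of the GC box, and to those known for forkhead factors, TGTTTAC, and for nuclear receptors, AGGTCA.
Ogn: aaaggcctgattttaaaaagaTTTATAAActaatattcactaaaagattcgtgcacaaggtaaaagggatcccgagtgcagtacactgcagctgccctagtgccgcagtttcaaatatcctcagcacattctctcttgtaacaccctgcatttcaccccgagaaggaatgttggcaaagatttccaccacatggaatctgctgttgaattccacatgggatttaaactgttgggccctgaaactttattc
Fmod: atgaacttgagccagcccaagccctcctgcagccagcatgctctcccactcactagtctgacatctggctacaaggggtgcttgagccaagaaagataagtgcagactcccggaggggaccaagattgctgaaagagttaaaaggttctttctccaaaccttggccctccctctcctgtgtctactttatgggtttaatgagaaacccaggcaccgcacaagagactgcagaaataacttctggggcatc
Col1a2: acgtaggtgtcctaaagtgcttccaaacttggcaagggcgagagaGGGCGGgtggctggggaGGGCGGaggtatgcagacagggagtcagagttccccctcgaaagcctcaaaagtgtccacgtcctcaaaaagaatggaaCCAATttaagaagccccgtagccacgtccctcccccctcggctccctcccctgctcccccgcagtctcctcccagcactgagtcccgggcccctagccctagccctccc

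The Ogn window held TATAAA on both strands in 1 overlapping stretch, 229 and 227 bases before the start, far upstream of where a TATA box acts. The Fmod window held none of the 5 motifs. The Col1a2 window held GGGCGG 205 and 188 bases before the start and CCAAT 109 bases before it. Of all 32851 windows of the same length, 12.4% held the TATA box letters, 33.8% those of the CCAAT box, 32.7% those of the GC box, 3.17% the forkhead letters and 14% the nuclear receptor letters. The 3 windows therefore had none of the 5 motifs in common.

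Col1a1 and Col1a2 encode the 2 chains of type I collagen, the main fibrillar collagen of the dura and of fibroblasts. Col1a1 ranged from 7.75 on wt/KO 1 to 8.25 on wt/KO 4, with a median of 7.99. Col1a2 ranged from 7.91 to 8.52 on the same 2 arrays, with a median of 8.145. The highest array exceeded the lowest 1.41-fold and 1.53-fold on the linear scale. Only 2 of the 6 highest Col1a1 levels, and 4 of the 6 highest Col1a2 levels, were on the arrays above the gap in Ogn. On ko/KO 4, where Ogn was highest, Col1a1 was 7.79, the lowest but one.

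Igf2 encodes insulin-like growth factor 2, an imprinted growth factor that the adult mouse brain makes mainly in the meninges and the choroid plexus. Its level was 9.0, 8.22, 8.34, 9.11 and 9.0 on the ko/KO arrays and 8.32, 8.36, 8.15, 8.52 and 8.24 on the ko/WT arrays. It was 8.21, 8.48, 8.24 and 8.87 on the wt/KO arrays and 8.07, 8.31, 8.62 and 8.91 on the wt/WT arrays. Again 5 of the 6 highest levels lay on the arrays above the gap in Ogn, and the remaining one was 8.62 on wt/WT 3. Igfbp2, the gene of a binding protein for insulin-like growth factors made by choroid plexus, meninges and astrocytes, ranged from 7.75 to 8.57 with a median of 8.09. Its highest level was on wt/WT 3, the array that stood apart in Ttr, and 3 of its 6 highest levels were on the arrays above the gap.

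Slc6a13 encodes GAT2, a transporter of GABA and taurine that in the brain marks the pia, the arachnoid and perivascular fibroblasts. Its level was 7.71, 7.24, 7.12, 7.82 and 7.67 on the ko/KO arrays and 7.05, 7.36, 7.16, 7.43 and 7.12 on the ko/WT arrays. It was 7.08, 7.22, 7.31 and 7.56 on the wt/KO arrays and 7.01, 6.76, 7.05 and 7.66 on the wt/WT arrays. The 6 arrays above the gap in Ogn held all 6 of its highest levels, from 7.43 to 7.82, while the other 12 ran from 6.76 to 7.36. Islr, the gene of meflin, a surface protein of mesenchymal cells with leucine-rich repeats, ranged from 7.13 to 7.79 with a median of 7.455, and 5 of its 6 highest levels were on those arrays.

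**Figure D2:**
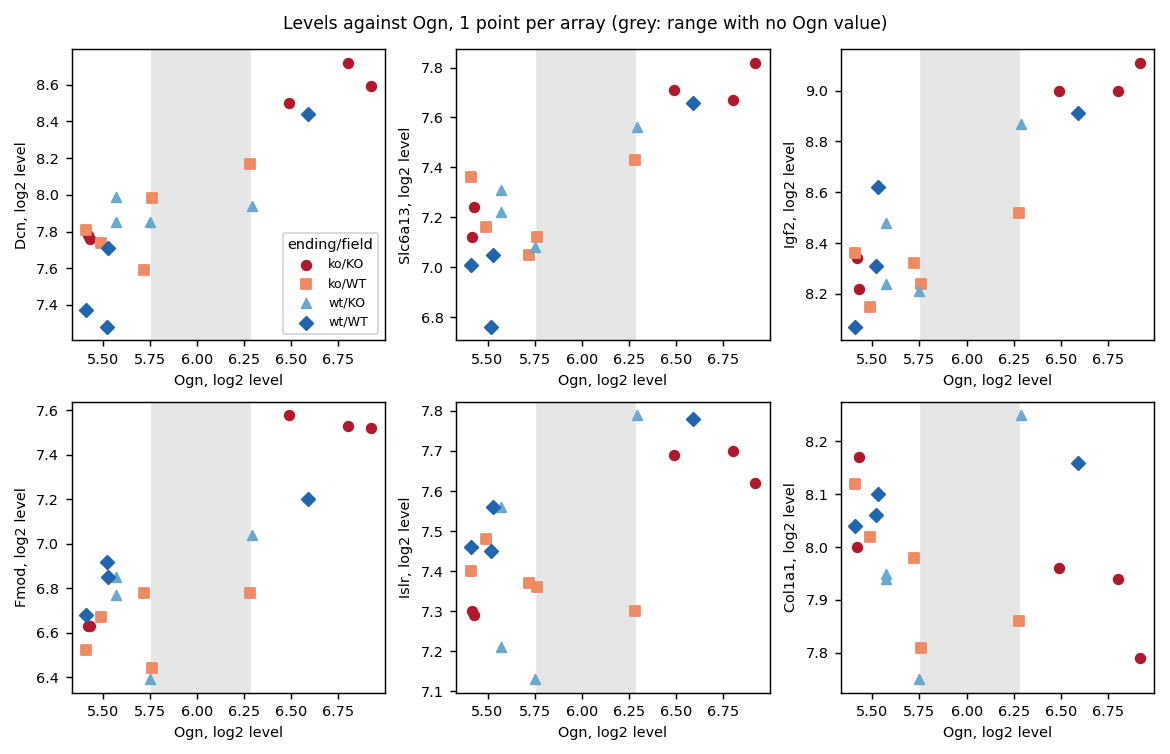
Log2 level of 6 genes (vertical axes) against the log2 level of Ogn (horizontal axes), 1 point per array, with the pair of labels as colour and shape and the range without an Ogn value in grey. The 6 arrays to the right of the grey range hold the 6 highest Slc6a13 levels, whereas Col1a1 on them spans 7.79 to 8.25.

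How far the genes rose and fell together was measured for the 36 pairs among the 9 genes other than Ogn, with two-sided permutation tests of Pearson's r over 18 arrays and Benjamini-Hochberg adjustment over these pairs. Because the genes were chosen with earlier results of these arrays known, the p-values describe these 18 arrays and are no independent evidence that the genes move together. In 16 pairs r passed the adjusted threshold of 0.05, always with a positive sign, and 34 of 36 values of r were positive, with a median of 0.50. The closest pair was Dcn and Slc6a13, with r = 0.91 and Spearman's rho = 0.87 (adjusted permutation p = 0.00027). Without the 2 arrays farthest from the median of Dcn, r was 0.88.

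Igf2 belonged to the closest pairs as well. It correlated with Fmod at r = 0.89 (rho = 0.76), with Slc6a13 at r = 0.84 (rho = 0.72) and with Dcn at r = 0.83 (rho = 0.71), each at an adjusted permutation p of 0.00027. Without the 2 farthest arrays these were 0.82, 0.75 and 0.73. The growth factor gene thus rose and fell with the transporter gene and with both proteoglycan genes. With Islr its r was 0.79 (rho = 0.68, adjusted permutation p = 0.000648) and 0.78 without the 2 farthest arrays.

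Fmod correlated with Islr at r = 0.75 (rho = 0.72, adjusted permutation p = 0.00192), with Slc6a13 at r = 0.74 (rho = 0.54, adjusted permutation p = 0.00293) and with Dcn at r = 0.72 (rho = 0.44, adjusted permutation p = 0.00348). Without the 2 farthest arrays the last 2 were 0.58 and 0.52. The rank correlations of Fmod with Slc6a13 and with Dcn missed the threshold, at adjusted permutation p of 0.0596 and 0.117. Of the 16 pairs that passed by Pearson's r, 3 more missed the threshold by rank, Slc6a13 with Islr (adjusted permutation p of rho = 0.111), Col1a1 with Col1a2 (0.0976) and Col1a1 with Igfbp2 (0.0906).

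Col1a2 correlated with Islr at r = 0.71 (rho = 0.59, adjusted permutation p = 0.00319), and with Igfbp2 at r = 0.68 (rho = 0.67, adjusted permutation p = 0.00871). Without the 2 farthest arrays these were 0.52 and 0.46. The 2 collagen chains correlated at r = 0.62 (rho = 0.48, adjusted permutation p = 0.0179), which was 0.27 without the 2 arrays farthest from the median of Col1a1, so that this relation rested on those arrays. Col1a1 with Igfbp2 was similar, at r = 0.60 (rho = 0.49, adjusted permutation p = 0.0206) and 0.38 without the 2 farthest arrays. The remaining pairs that passed were Igfbp2 with Islr (r = 0.64, rho = 0.65, adjusted permutation p = 0.0117), Slc6a13 with Col1a2 (r = 0.60, rho = 0.57, adjusted permutation p = 0.0206), Col1a2 with Igf2 (r = 0.59, rho = 0.61, adjusted permutation p = 0.0206) and Slc6a13 with Islr (r = 0.59, rho = 0.46, adjusted permutation p = 0.0241). In these 4 pairs r stayed between 0.51 and 0.62 without the 2 farthest arrays.

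Col1a1 did not follow the most variable genes. Its r was -0.29 with Dcn (rho = -0.44, adjusted permutation p = 0.309), -0.03 with Slc6a13 (rho = -0.11, adjusted permutation p = 0.926), 0.04 with Igf2 (rho = -0.025, adjusted permutation p = 0.926) and 0.02 with Fmod (rho = 0.07, adjusted permutation p = 0.926). Lum passed with none of the other 8 genes, with r from 0.19 to 0.49. These include Dcn, the gene next to it on chromosome 10 (r = 0.31, rho = 0.21, adjusted permutation p = 0.287).

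Since Ogn fell in 2 clusters, its correlations were taken within each. In the lower cluster every Ogn level was under 5.81, the lowest of the lower quartiles of the arrays. Over the 12 arrays below the gap it correlated with Col1a1 at r = -0.81 (rho = -0.76, adjusted permutation p = 0.0196 over the 18 relations of Ogn), which was -0.56 without the 2 farthest arrays, and the adjusted p of rho was 0.0958. Over the 6 arrays above the gap its r was 0.87 with Dcn (rho = 0.83), 0.85 with Slc6a13 (rho = 0.83) and 0.77 with Igf2 (rho = 0.90), each with an adjusted p of 0.188 by exact permutation. None of the 9 relations above the gap passed. The other 36 pairs, taken again over the 12 arrays below the gap, gave 0 that passed, 22 positive values and a median r of 0.19. Dcn with Slc6a13 was the highest, at r = 0.74 (rho = 0.67, adjusted permutation p = 0.179). Igf2 with Slc6a13, Dcn and Fmod fell to r of 0.03, 0.24 and 0.37 there, and Dcn with Fmod to -0.48. Col1a1 with Col1a2 was at 0.68 and Igfbp2 with Islr at 0.56. Without the 2 farthest of the 12 arrays, Dcn with Slc6a13 was at 0.34, Col1a1 with Col1a2 at 0.41 and Igfbp2 with Islr at 0.12. None of these passed over 12 arrays, a set that also gives fewer calls by its size.

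The 10 genes and all lists were chosen with earlier results known. Relations to other tissue were therefore described without a test, by the mean z-score of the 10 genes over the 18 arrays. Of 19927 genes outside the 10, 27 (0.135%) had r of at least 0.7 with it. The 10 most like it were Aldh1a2 (0.88), Itih2 (0.87), Serpind1 (0.86), Slc6a20a (0.86), Slc13a4 (0.86), Slc22a6 (0.85), Cdh1 (0.84), Slc13a3 (0.83), Slc47a1 (0.81) and Slc6a12 (0.80). These values span both clusters of Ogn, and within a cluster most were lower. Over the 12 arrays below the gap r was 0.53 for Aldh1a2, 0.71 for Itih2, 0.047 for Serpind1, 0.46 for Slc6a20a, 0.49 for Slc13a4, 0.38 for Slc22a6, 0.71 for Cdh1, 0.53 for Slc13a3, 0.59 for Slc47a1 and 0.51 for Slc6a12. Over the 6 above it r ran from 0.21 for Itih2 to 0.91 for Slc22a6. Aldh1a2 encodes the retinoic acid synthesising enzyme of the meninges, and the SLC genes encode transporters of organic anions, cations, sulfate, dicarboxylates and amino acids, several of which are known from the leptomeninges. Of these 10, 5 belonged to a list of 23 measured further meningeal and fibroblast genes. Cdh1 encodes E-cadherin, which joins cells of the arachnoid barrier.

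Among the single genes, Igf2 lay closest to the mean z-score of the other 9, at r = 0.91, above every gene outside them. Islr followed at 0.85, Fmod at 0.81, Slc6a13 at 0.77, Col1a2 at 0.71, Dcn at 0.65, Igfbp2 at 0.56 and Lum at 0.45. Col1a1 was at 0.20, with 4366 as its rank among all genes. The genes most like single members over 18 arrays were Serping1, which encodes the C1 inhibitor of complement, for Dcn (0.92), Aldh1a2 for Igf2 (0.91) and for Slc6a13 (0.89), Myoz1 for Col1a1 (0.90), Serpind1 for Islr (0.87), Slc6a20a for Fmod (0.86), Wwtr1 for Igfbp2 (0.84), Slc47a1 for Col1a2 (0.83) and Phldb2 for Lum (0.76). No such values are given for Ogn itself, because its levels fell in 2 clusters. It is, however, part of each mean z-score of the other 9.

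The further meningeal and fibroblast genes, a list also chosen with earlier results of these arrays known, moved with the 10. Of 23 measured, 15 had r of at least 0.5 with the mean z-score, against 1.36% of all genes, and their median r was 0.61 against 0.0015 for all genes. Their own mean z-score ran from 0.08 to 0.96 on the 6 arrays above the gap in Ogn and from -0.84 to 0.20 on the other 12, and its r with that of the 10 was 0.97. Macrophages of the brain borders, which live in the meninges and along vessels, came next. Of 9 markers 3 had r of at least 0.5, the median was 0.42, and their mean z-score ran from -0.20 to 0.70 on the 6 arrays and from -1.44 to 0.56 on the others, so that the ranges overlapped. The highest were Cd209f (0.64) and F13a1 (0.62), and the lowest was Ms4a7 (0.03). Cd209f, at 4.43 to 5.23, lay below 5.81, the lowest of the lower quartiles of the arrays, throughout.

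Other tissues that a hypothalamic dissection can hold moved less with the 10 genes. For the choroid plexus 1 of 13 markers had r of at least 0.5 (Kcnj13, at 0.56), and the mean z-score of the list had r = 0.01 with that of the 10. It ran from -0.45 to 0.11 on the 6 arrays above the gap and from -0.68 to 2.43 on the others. For mural cells of vessels the count was 2 of 11 (Vtn, 0.65, and Acta2, 0.52), for endothelium 0 of 11, for astrocytes 1 of 11 (Aqp4, 0.55), for ependyma and tanycytes 0 of 10, for pituitary 0 of 9 and for blood 0 of 4. The 9 hypothalamic markers had a median r of -0.23, and 7 of them were negative. Pomc is on both this list and that of the pituitary. The part of any of these in the levels of the 10 genes was not tested.

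Col1a1 and Igfbp2 also moved with other lists. Col1a1 had r = 0.86 with the mean z-score of the pituitary markers, 0.83 with that of fibrillar collagens and collagen processing genes and 0.65 with that of the blood markers, but 0.37 with that of the further meningeal genes. Its r with the astrocyte markers was -0.60. Of the pituitary markers, Prl (5.12 to 5.78) and Tshb (4.82 to 5.36) lay below 5.81, the lowest lower quartile of the arrays, throughout. Others were brighter, such as Ghrhr at 7.26 to 7.84. The array wt/KO 1 was lowest in Col1a1 and in the pituitary, collagen and blood scores. It also had the lowest array median, 7.10, and the highest array SD, 2.04, and the part of this in these relations was not tested. Igfbp2 had r = 0.58 with the choroid plexus markers and 0.67 with the further meningeal genes. The array wt/WT 3 had both the highest Igfbp2 level, 8.57, and the highest mean z-score of the choroid plexus markers, 2.43. The next highest score was 0.89, on wt/WT 1, and the relation was not taken without wt/WT 3. With Ttr the r of Igfbp2 was 0.35 (rho = 0.07, adjusted permutation p = 0.264 over 2 relations), and -0.18 without wt/WT 3. For Igf2 with Ttr r was -0.28 (rho = -0.43, adjusted permutation p = 0.264), and -0.59 without wt/WT 3 (rho = -0.54, adjusted permutation p = 0.0261). Pearson's r thus passed only when that array was left out, and the rank correlation did not pass then either, at an adjusted permutation p of 0.0533.

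The families and pathways of the 10 genes moved with them only in part. Of 13 measured relatives of the small leucine-rich proteoglycans 1 had r of at least 0.5, Bgn, the gene of biglycan, at 0.53, while Ecm2 was at 0.03. Of 21 genes of fibrillar collagens and collagen processing the count was 2, Col3a1, the type III chain, at 0.60 and Pcolce, an enhancer of procollagen cleavage, at 0.57. Bgn and Col3a1, and Lox of the collagen list, also belong to the further meningeal and fibroblast genes, so these lists overlap. In the insulin-like growth factor pathway it was 3 of 14, with Igfbp6 at 0.68 and Igfbp1 at 0.61, while Insr, the insulin receptor, was at 0.14. Of 4 relatives of Slc6a13, Slc6a12, which encodes the betaine and GABA transporter next to it on chromosome 6, was at 0.80 and Slc6a8, the creatine transporter, at 0.12.

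Chromosomal neighbours gave 1 relation that passed among 20. It was Col1a1 with Sgca, the gene of alpha-sarcoglycan after it on chromosome 11, at r = 0.74 (rho = 0.79, adjusted permutation p = 0.0094, 0.71 without the 2 farthest arrays). Slc6a13 with Slc6a12 had r = 0.52 (rho = 0.51, adjusted permutation p = 0.183) and Fmod with Prelp, its proteoglycan neighbour on chromosome 1, r = 0.56 (rho = 0.38, adjusted permutation p = 0.151). Neither pair passed.

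The question of the study, how expression differs between mutant and wild-type hypothalamus, was asked of the 10 genes by each label with limma over all 19937 genes. By the title ending, Dcn averaged 8.06 ± 0.41 (SD, n = 10) over arrays ending in ko and 7.80 ± 0.37 (SD, n = 8) over those ending in wt, a difference of 0.26 (SE 0.16, limma adjusted p = 0.884). The difference was 0.16 for Slc6a13 (SE 0.12) and 0.19 for Ogn (SE 0.22). The largest fall among the 10 was -0.066 for Col1a1. The direction was upward in 5 of the 10 genes and downward in 5. Their median difference was 0.028, and that of all genes 0.003. Limma called 0 of the 10 and 0% of all genes, and at an unadjusted p under 0.05 again 0 of 10 against 4.63% of all genes. The ranges of both sets overlapped for each of the 10, as for all but 0.00502% of genes.

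By the genotype field the differences of the variable genes were larger. Dcn averaged 8.11 ± 0.38 (SD, n = 9) over the KO field and 7.79 ± 0.37 (SD, n = 9) over the WT field, a difference of 0.32 (SE 0.15, limma adjusted p = 0.694). For Slc6a13 the difference was 0.24 (SE 0.11, limma adjusted p = 0.694), for Ogn 0.28 (SE 0.21), for Fmod 0.23 (SE 0.15) and for Igf2 0.22 (SE 0.14). Igfbp2 and Col1a1 differed the other way, by -0.07 and -0.044. The direction was thus upward in 8 and downward in 2, and the median difference was 0.13 where that of all genes was -0.0056. Limma called 0 of the 10 and 0% of all genes. At an unadjusted p under 0.05 it was 0 of 10 against 6.95% of all genes, with Dcn and Slc6a13 just above it at limma p of 0.0503 and 0.0504 before adjustment. Both sets overlapped in each of the 10, as in all but 0.00502% of genes.

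**Figure D3:**
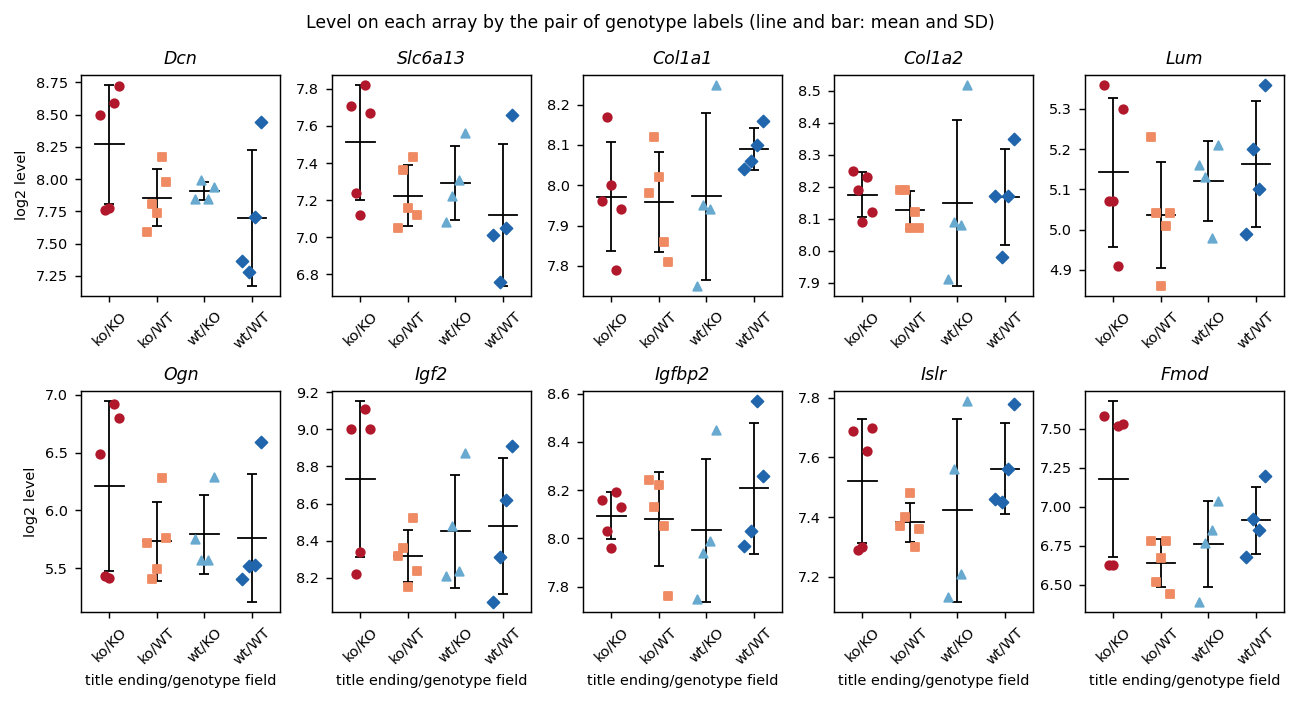
Log2 level of each of the 10 genes (vertical axes) on every array by its pair of labels, title ending first (horizontal axes), with the mean as a line and the SD as a bar. For Ogn, Igf2 and Fmod the ko/KO arrays split into 3 high and 2 low arrays, and in each gene the 4 label pairs overlap.

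On the 9 arrays whose labels give the same genotype, ko/KO minus wt/WT, Dcn differed by 0.57 (SE 0.24, 95% interval 0.05 to 1.09, limma adjusted p = 0.429) and Slc6a13 by 0.39 (SE 0.18, 95% interval 0.01 to 0.77, limma adjusted p = 0.440). Ogn differed by 0.45 (SE 0.32), Fmod by 0.27 (SE 0.20) and Igf2 by 0.26 (SE 0.20). Leaving out single arrays moved Ogn between 0.27 (without ko/KO 4) and 0.73 (without wt/WT 4), Fmod between 0.17 (without ko/KO 1) and 0.40 (without ko/KO 2 or ko/KO 3), and Igf2 between 0.12 (without wt/WT 1) and 0.40 (without wt/WT 4). Of the 5 ko/KO arrays 3 were above the gap in Ogn, against 1 of the 4 wt/WT arrays. Limma called 0 of the 10 and 0% of all genes, and 2 of the 10 at an unadjusted p under 0.05 against 11.1% of all genes. These 2 were Dcn and Slc6a13. In the same comparison the choroid plexus markers were lower in 13 of 13 cases, with a median of -0.23. Of these 0 were called and 8 of 13 had an unadjusted p under 0.05. The mean z-score of this list was 2.43 on wt/WT 3, against 0.89, 0.40 and -0.06 on wt/WT 1, 2 and 4. The list was not examined without wt/WT 3, and its part in the differences of the 10 genes was not tested. Both label pairs overlapped in each of the 10, and 2.82% of all genes had no overlap.

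On the 9 arrays with contradicting labels, ko/WT minus wt/KO, 9 of the 10 genes were lower and 1 higher. Igf2 differed by -0.13 (SE 0.13), and by 0.008 without wt/KO 4. Fmod differed by -0.12 (SE 0.12), Slc6a13 by -0.07 (SE 0.11) and Dcn by -0.05 (SE 0.10). The limma adjusted p was 0.9998 for each, limma called 0 of the 10 and 0% of all genes, and at an unadjusted p under 0.05 the count was 0 of 10 against 2.74% of all genes. Both label pairs overlapped in each of the 10, and 0.767% of all genes had no overlap. Whether the difference by ending depended on the field was tested as an interaction. Limma called 0 of the 10 and 0% of all genes. The term was positive for all 10, with a median of 0.20, where 9311 of all genes were positive and 10626 negative with a median of -0.011. It was also positive for 13 of 13 choroid plexus markers, with a median of 0.29, and wt/WT 3 had the highest score of that list. Many of the 10 genes rose and fell together over these arrays, so counts of signs among them are not counts of independent results. The largest term among the 10 was that of Fmod, 0.69 (SE 0.27, limma adjusted p = 0.927), the 1 of the 10 with an unadjusted p under 0.05 against 5.18% of all genes.

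The other lists gave no calls by either label. By the ending, 12 of the 23 further meningeal and fibroblast genes were higher and 11 lower, and by the field 17 were higher and 6 lower. In each, limma called 0, and 1 had an unadjusted p under 0.05, against 4.63% of all genes by the ending and 6.95% by the field. Choroid plexus markers went down in 12 of 13 cases by the ending and in 12 of 13 by the field, again with 0 called. Of the 21 genes of fibrillar collagens and collagen processing 18 went down by the ending and 15 by the field. The 9 hypothalamic markers all went down by the ending and all went up by the field. Of all 19937 genes, 9619 went down by the ending and 10534 by the field. Limma called 0 genes of any of the 14 lists in these comparisons or by Wfs1 level. By the ending Serping1 differed by 0.16 (SE 0.11), Aldh1a2 by 0.12 (SE 0.18) and Nupr1 by -0.12 (SE 0.057), each at a limma adjusted p of at least 0.884. In the family and pathway lists the smallest p by the ending belonged to Ecm2 at 0.18 (SE 0.071), Nyx at -0.15 (SE 0.061), P3h1 at -0.079 (SE 0.037), Insr at 0.10 (SE 0.062) and Slc6a8 at 0.10 (SE 0.070), each with a limma adjusted p of 0.884.

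The relation to Wfs1 was examined by the level of its probeset, which is no label of the study. The Wfs1 levels fell in 2 clusters, 10 arrays under 8.2 and 8 arrays over it. Limma called 2 of 19937 genes between these sets, or 0.01%, Wfs1 itself (-0.54, used to form the sets) and the complement gene C4b (0.62, limma adjusted p = 2.15e-05). It called 0 of the 10 meningeal and fibroblast genes, of which 5 were higher and 5 lower on the arrays with low Wfs1, and 0 of the 10 had an unadjusted p under 0.05 against 4.34% of all genes. Both sets overlapped in each of the 10, as in all but 0.0201% of genes.

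Dcn was 7.88 ± 0.47 (SD, n = 10) on the arrays under 8.2 and 8.04 ± 0.30 (SD, n = 8) on those over it, a difference of -0.16 (SE 0.17, 95% interval -0.51 to 0.19, limma adjusted p = 0.999). For Slc6a13 the difference was -0.13 (SE 0.12, 95% interval -0.39 to 0.13). For Ogn it was 0.031 (SE 0.22, 95% interval -0.43 to 0.49) and for Igf2 0.035 (SE 0.14, 95% interval -0.26 to 0.34). The intervals of these 4 genes include differences of the size seen by the genotype field in at least one direction. Igfbp2 and Islr were higher on the low Wfs1 arrays by 0.11 and 0.096 (SE 0.090 and 0.085).

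**Figure D4:**
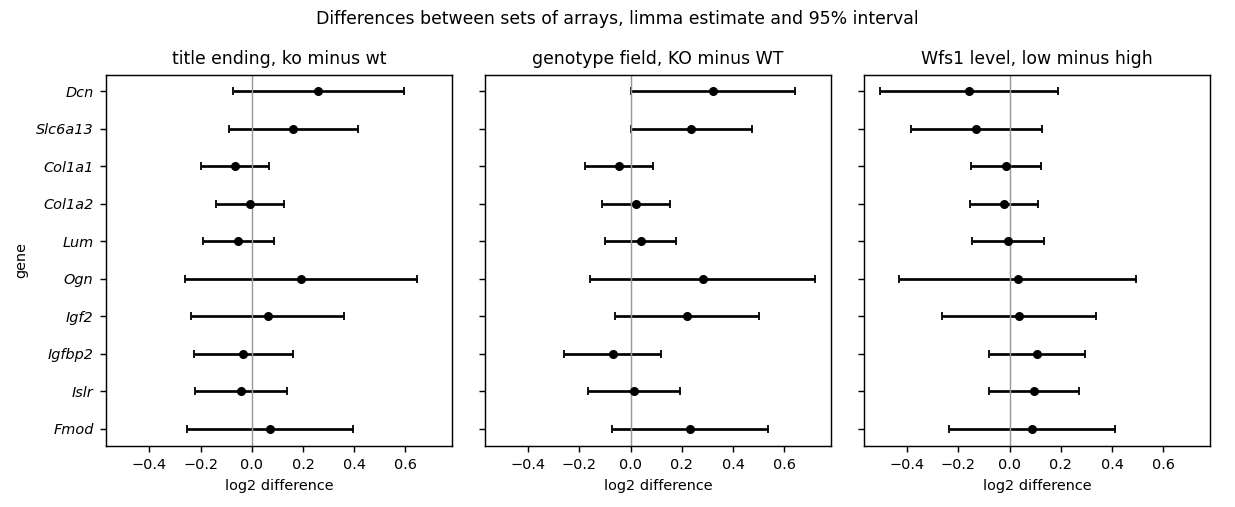
Log2 difference of each of the 10 genes (horizontal axes) by title ending, by genotype field and by Wfs1 level, as limma estimates (points) with 95% intervals (bars). Dcn is at 0.26, 0.32 and -0.16 in the 3 panels, and no gene passed the adjusted threshold in any of them.

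Of the 6 arrays above the gap in Ogn 3 had Wfs1 under 8.2 and 3 over it. On the arrays under 8.2 these were ko/KO 4, ko/KO 5 and wt/KO 4, with Ogn at 6.92, 6.80 and 6.29, and on the arrays over 8.2 ko/KO 1, ko/WT 4 and wt/WT 4, with Ogn at 6.49, 6.28 and 6.59. Within each set the levels of the 10 genes were also set against Wfs1, in 20 relations. None passed, and the lowest adjusted p was 0.757. Under 8.2 (n = 10) r was -0.53 for Dcn (rho = -0.39), -0.50 for Igf2 (rho = -0.56) and -0.49 for Fmod (rho = -0.46), each with an adjusted permutation p of 0.757. Over 8.2 (n = 8, exact permutation) r was 0.42 for Fmod (rho = 0.48) and 0.02 for Dcn (rho = -0.01), with adjusted p of 0.757 and 0.966. Without the 2 arrays farthest from the median of Wfs1, r of Dcn was -0.39 under 8.2 and -0.43 over it.

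**Figure D5:**
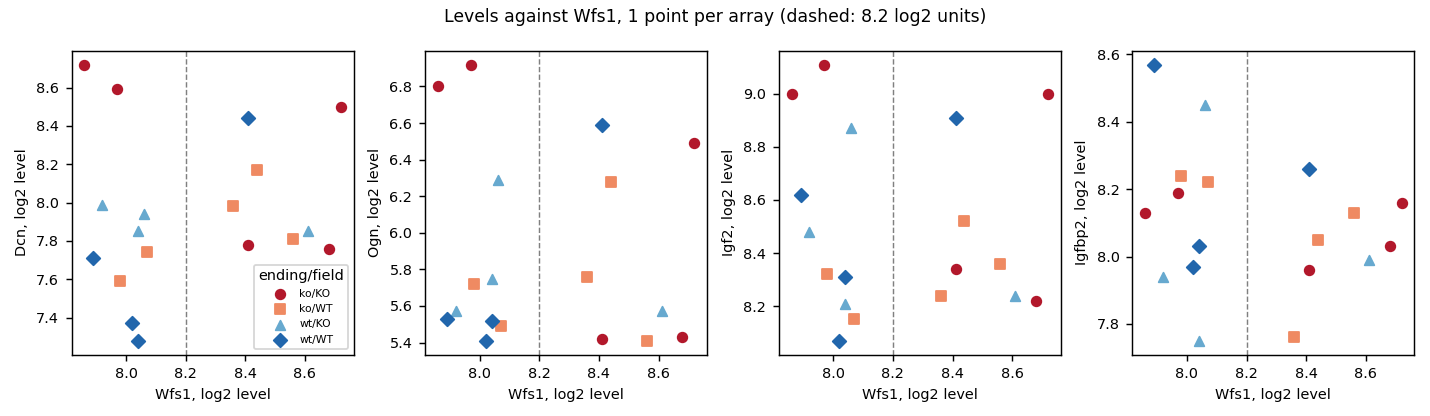
Log2 level of Dcn, Ogn, Igf2 and Igfbp2 (vertical axes) against the log2 level of Wfs1 (horizontal axes), 1 point per array with the pair of labels as colour and shape, and a dashed line at 8.2. Arrays with Ogn over the gap lie on both sides of the line, 3 under 8.2 and 3 over it.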

How the data were processed

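Total RNA was extracted with Trizol and labelled with biotin, per the labels' protocols. What the authors deposited are log2 values of 34760 probesets on 18 arrays. The scale was read from the values, which run from 1.11 to 14.54. RMA and MAS5 appear in the submitters' processing notes, without a version or a stated role. Where RMA is used it compresses small differences at low signal. The array model and the dates of scanning were not given in the sources used. No scanner files were analysed, signal over background could not be examined, and the number of arrays limits the precision.

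The platform annotation paired 21640 probesets with 1 gene symbol, 1321 with several and 11799 with none. RefSeq (GRCm38.p6) matched 21553 of the 21640 by Entrez identifier and changed 0 symbols. The brightest single-gene probeset was taken for each of 19937 genes. Differences were fitted with limma 3.58.1 (lmFit and eBayes, R 4.3.3), without covariates, at a Benjamini-Hochberg adjusted p of 0.05 over all genes. The fit was tested on simulated data. Correlations used 100000 permutations (Python 3.11.15), with a smallest possible p of 1e-05, or exact enumeration below 10 arrays. Clusters were taken as separate where the largest gap between arrays exceeded 33.3% of the range with at least 2 arrays on either side, a criterion chosen after seeing the data. Ogn was so separated, and the 45 pairs of the design became 36 pooled pairs without it.

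Arrays were grouped by both labels and replicates numbered in the order of deposit. Alternatives were quantile normalization, leaving out the dimmest 40% of genes, the mean of a gene's probesets, eBayes with trend, a second label as covariate, Wfs1 as a continuous term, the choroid plexus score as a covariate of the correlations, and leaving out each array. The 10 genes and all lists were chosen with earlier results of these data known. Named genes are the 10, Wfs1, from each list up to 2 with the smallest p by ending and 2 with the highest r with the 10, the genes most like them, and chromosomal neighbours. C4b, as 1 of the 2 genes called by Wfs1 level, Ttr and the hypothalamic markers were named after their values were seen.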

Additional observations from a re-analysis of the deposited data

Results flagged for a closer look

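Within the groups of 4 or 5 arrays, 1 of 40 tests for a single array far from the rest was positive, where chance gives about 2. It was Ogn on wt/WT 4, at 6.59 against 5.53 for the nearest of the other 3 arrays of that label pair. The same array was among the 6 highest for Dcn (8.44), Slc6a13 (7.66), Igf2 (8.91) and Islr (7.78).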

How the results depend on the processing

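In 50 differences of the 10 genes under 935 alternative fits, 870 kept their sign and 65 did not, and limma called 0 (lowest adjusted p 0.144). The 870 include fits that could not change an estimate, and so do not measure how stable the signs are. These were the mean of probesets, eBayes with trend and leaving out the dimmest genes. The second label as a covariate also left estimates unchanged, since both fields were equally frequent within each ending. For Dcn by the title ending the estimate was 0.26 in all of these. Under quantile normalization 3 turned, Col1a2 and Lum on the agreeing arrays (-0.018 and 0.027) and Lum by Wfs1 level (0.014). All other turns came from leaving out single arrays, the largest estimates among them being Igf2 on the contradicting arrays (-0.13, turned without wt/KO 4) and Igfbp2 on the agreeing arrays (-0.11, turned without wt/WT 3). The cause was not tested. By Wfs1 level the estimate ran from -0.044 to 0.012 for Col1a1, from -0.064 to 0.0036 for Col1a2, from -0.031 to 0.11 for Igf2, from -0.028 to 0.028 for Lum, from -0.082 to 0.13 for Ogn. On the contradicting arrays the estimate ran from -0.089 to 0.078 for Col1a1, from -0.10 to 0.10 for Col1a2, from -0.13 to 0.018 for Dcn, from -0.21 to 0.008 for Igf2, from -0.047 to 0.19 for Igfbp2, from -0.14 to 0.082 for Islr, from -0.20 to 0.10 for Ogn, from -0.14 to 0.021 for Slc6a13. On the agreeing arrays the estimate ran from -0.054 to 0.069 for Col1a2, from -0.19 to 0.0073 for Igfbp2, from -0.087 to 0.03 for Islr, from -0.078 to 0.045 for Lum. By the genotype field the estimate ran from -0.026 to 0.051 for Col1a2, from -0.025 to 0.058 for Islr. By the title ending the estimate ran from -0.042 to 0.045 for Col1a2, from -0.0042 to 0.12 for Fmod, from -0.0026 to 0.13 for Igf2, from -0.086 to 0.031 for Igfbp2, from -0.093 to 0.001 for Islr.

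The count of 16 correlated pairs was 0 within the 12 arrays below the gap in Ogn, a set chosen after seeing the data and smaller by 6 arrays. It was 17 under quantile normalization, 19 given the choroid plexus score, 21 of 45 pairs with Ogn included, and 13 to 22 without single arrays. The mean of probesets had to give the same 16, since each of the 10 genes had 1 single-gene probeset. Genes called by Wfs1 level numbered 2 to 3 without single arrays, and by every label comparison 0. No paired analysis was possible because the labels give no replicate numbers that the groups share. Detection limits could not be set without signal over background. This bears most on Lum and on the 12 arrays below the gap in Ogn, where Ogn was under 5.81.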
